A study of Homo sapiens with 6 samples.

Results

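The RNA exosome is the complex that digests RNA from its 3′ end, and the 10 genes EXOSC1 to EXOSC10 encode its barrel and one of its nucleases. The subunits were chosen by gene symbol, with the row of highest total count taken where a symbol had several Ensembl IDs, which left 10 genes of the 63677 in the count table. They were proposed with earlier results of these data known, among them that EXOSC5 was lower after doxycycline. The values of EXOSC5 between the groups are therefore a description, and no count over the subunits supports anything beyond it. EXOSC4 was the one subunit with 2 IDs, and its other ID held 0 counts. All 10 genes passed the filter on low counts.

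The cells were RPMI-8402, a T-cell acute lymphoblastic leukaemia line, and all of them carried Cas9 stably. One group received the solvent DMSO and the other doxycycline (DOX), the inducer of guides that target MYC and MYCN. Both were harvested at 72 hours, with 3 strand-specific libraries per group. The library titles abbreviate both groups as DKO. The genotype label of the DMSO samples is control and that of the DOX samples names a MYCN knockout, whereas the treatment text names guides against MYC. The count table numbers its columns 11, 23 and 35 for DMSO and 12, 24 and 36 for DOX, and these numbers name the libraries here. Cells given doxycycline but no guides were not analysed here, so drug and guides were measured together and cannot be told apart. Nothing says that the 3 libraries of each group are separate cultures, and the p-values therefore describe only how these libraries spread, possibly for technical reasons. In bulk RNA of one line, fewer cells with an RNA and less of that RNA per cell cannot be told apart.

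The exosome is a barrel. A ring of RNase PH-like subunits (EXOSC4 to EXOSC9) is topped by a cap of RNA-binding subunits (EXOSC1, EXOSC2 and EXOSC3), and RNA is threaded through to nucleases attached at either end. In human cells the ring itself has no catalytic activity, and the nucleases DIS3, DIS3L and EXOSC10 do the cutting. Nuclear exosomes trim ribosomal and small nucleolar RNA precursors and remove faulty or unstable transcripts, and cytoplasmic exosomes degrade messenger RNA. Rapidly growing leukaemia cells make much ribosomal RNA, and MYC proteins drive ribosome production.

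Library totals ran from 28602145 to 29204148 counts. DMSO 11 was unlike its group: over the 9311 genes that averaged 10 CPM or more (read counts scaled to a common library total), its root mean square log2 distance was 0.41 to 0.43 to DMSO 23 and DMSO 35, against 0.18 to 0.21 to the DOX libraries. Results for the gene lists and for several single genes are therefore also given without it. All 10 T lineage markers examined had a mean of at least 1 CPM, and their summed level ran from 1820 to 1926 CPM in DMSO and from 1804 to 1845 CPM in DOX. The sum hides single markers that differed in either direction, named here after their values were seen. Log2 fold changes (DOX over DMSO) were -0.73 ± 0.16 for PTCRA and -0.36 ± 0.07 for LMO1. They were 0.25 ± 0.11 for TAL1 and 0.46 ± 0.41 for CD2. The summed level of markers of other lineages was 7.07 to 10.9 CPM in DMSO and 14.3 to 16.7 CPM in DOX, with COL1A1 at a mean of 4.11 CPM in DMSO and 9.41 in DOX, and the part of this in the results below was not tested. MYCN stood at 76.8, 109.5 and 86.9 CPM in the DMSO libraries and at 46.2, 50.05 and 53.7 CPM in the DOX libraries. The log2 fold change of MYCN was -0.87 ± 0.13 (adjusted p = 0.0726 by edgeR, 8.05e-06 by DESeq2), and -0.98 without DMSO 11 (edgeR adjusted p = 2.26e-07). MYC stood at 279, 201 and 256 CPM against 206, 200 and 193 CPM, with overlapping groups and a log2 fold change of -0.30 ± 0.12 (edgeR adjusted p = 0.176). It was -0.20 ± 0.08 without DMSO 11 (edgeR adjusted p = 0.0566).

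Subunit RNAs were present at unequal levels in the control cells. Levels between genes are compared per length, in RPKM (CPM per kilobase of exonic sequence, counted once over the basic transcripts of GENCODE 29, a subset of all annotated transcripts). EXOSC7 stood highest in DMSO at 68.8 ± 5.87 RPKM (SD, n = 3), followed by EXOSC5 at 67.8 ± 17.6, EXOSC9 at 61.9 ± 2.53, EXOSC8 at 59.6 ± 10.6, EXOSC10 at 48.4 ± 2.97, EXOSC1 at 43.5 ± 5.76 and EXOSC2 at 38.1 ± 8.45 RPKM. Neighbours in this order, from EXOSC7 to EXOSC2, had overlapping ranges. EXOSC3 followed at 17.4 ± 0.472, EXOSC4 at 9.78 ± 1.58 and EXOSC6 at 5.99 ± 0.822 RPKM, and none of these 3 overlapped with its neighbours. The RNAs of 2 ring subunits, EXOSC4 and EXOSC6, were thus the scarcest of the family by this measure. The order among the higher genes depended on the length used. Over the basic transcripts EXOSC9 spans 1.77 kilobases and EXOSC4 0.887, but the longest coding transcript outside that subset is 3.88 and 1.06 kilobases. With the longest coding transcript as the length, EXOSC9 stood at 28.2 RPKM and moved from place 3 to place 7. With exons of all annotated transcripts, the lengths of every subunit but EXOSC6 grew, EXOSC5 came first at 50.9 RPKM, and EXOSC7 moved from place 1 to place 6 at 16.4 RPKM. EXOSC3, EXOSC4 and EXOSC6 held the last 3 places in DMSO under all 3 lengths. For EXOSC6 the 3 lengths are the same, 5.15 kilobases from 1 annotated transcript. Its own level of 5.99 RPKM could therefore not vary with this choice.

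**Figure D1:**
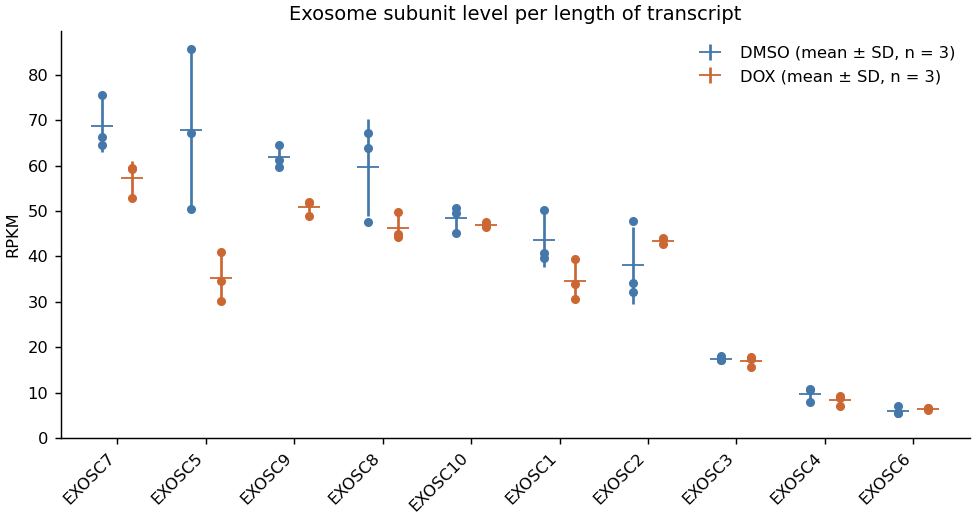
Level per length (RPKM, vertical axis) of each subunit, ordered by the DMSO mean. Points are libraries, and bars are mean ± SD over 3 libraries per group. With the length over basic transcripts used here, EXOSC5 goes from place 2 in DMSO to place 6 in DOX. EXOSC3, EXOSC4 and EXOSC6 are then the lowest in both groups. With exons of all transcripts EXOSC5 is in place 1 in both, and in DOX EXOSC1 (place 8) is below EXOSC3 (place 7).

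In DOX the order over basic transcripts was EXOSC7 (57.3 ± 3.77 RPKM), EXOSC9 (50.8 ± 1.74), EXOSC10 (47.0 ± 0.555), EXOSC8 (46.3 ± 3.01) and EXOSC2 (43.5 ± 0.732), and EXOSC5 came next at 35.3 ± 5.41 RPKM. Its range lay above that of EXOSC2 in DMSO and below it in DOX, where it overlapped with that of EXOSC1, at 34.7 ± 4.46 RPKM. With exons of all transcripts EXOSC5 was in place 1 in DOX as well, at 26.5 RPKM, so its change of place depends on the length. The lowest places in DOX depended on it too. With exons of all transcripts EXOSC1 (9.57 RPKM) stood below EXOSC3 (10.2), and EXOSC4 (5.26) below EXOSC6 (6.45). The summed level of the 10 RNAs was 407, 441 and 416 RPKM in the DMSO libraries and 340, 365 and 335 RPKM in the DOX libraries, without overlap. With lengths over basic transcripts, EXOSC5 made up 12.4%, 19.4% and 16.2% of that sum in DMSO and 8.89%, 11.2% and 10.3% in DOX. EXOSC10 made up 10.2% to 12.4% in DMSO and 12.9% to 14.0% in DOX, while its own log2 fold change was -0.04 ± 0.08. These shares depend on the lengths used. With exons of all transcripts, EXOSC5 had a mean of 50.9 RPKM in a sum of 186 in DMSO and of 26.5 RPKM in a sum of 149 in DOX.

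Across the family, most subunits stood lower in DOX and EXOSC5 stood furthest from DMSO. Log2 fold changes (DOX over DMSO, ± SE) were below 0 for 8 of 10 subunits, with a median of -0.25, against 50.3% of all 15949 genes tested and a median of -0.00307. Those of EXOSC3 (-0.04 ± 0.09) and EXOSC10 (-0.04 ± 0.08) were below 0 by less than their SE. Leaving out EXOSC5, which was known to be low, 7 of 9 were below 0, with a median of -0.23. EdgeR's quasi-likelihood test at a Benjamini-Hochberg adjusted p of 0.05 called 0 of the 10, against 0.0313% of all genes. Of the 10, 5 had an unadjusted edgeR p under 0.05, against 26.02% of all genes. DESeq2 called 2 subunits lower (EXOSC5 and EXOSC9), against 6.89% of genes, and 0 higher, against 3.08%. The DOX libraries were all lower than any DMSO library for 4 subunits (EXOSC1, EXOSC5, EXOSC7 and EXOSC9), against 15.6% of all genes, and all higher for 0, against 14.6%. Without DMSO 11, edgeR called 5 subunits lower and 2 higher, in a fit that called 25.7% of genes lower and 23.7% higher.

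**Figure D2:**
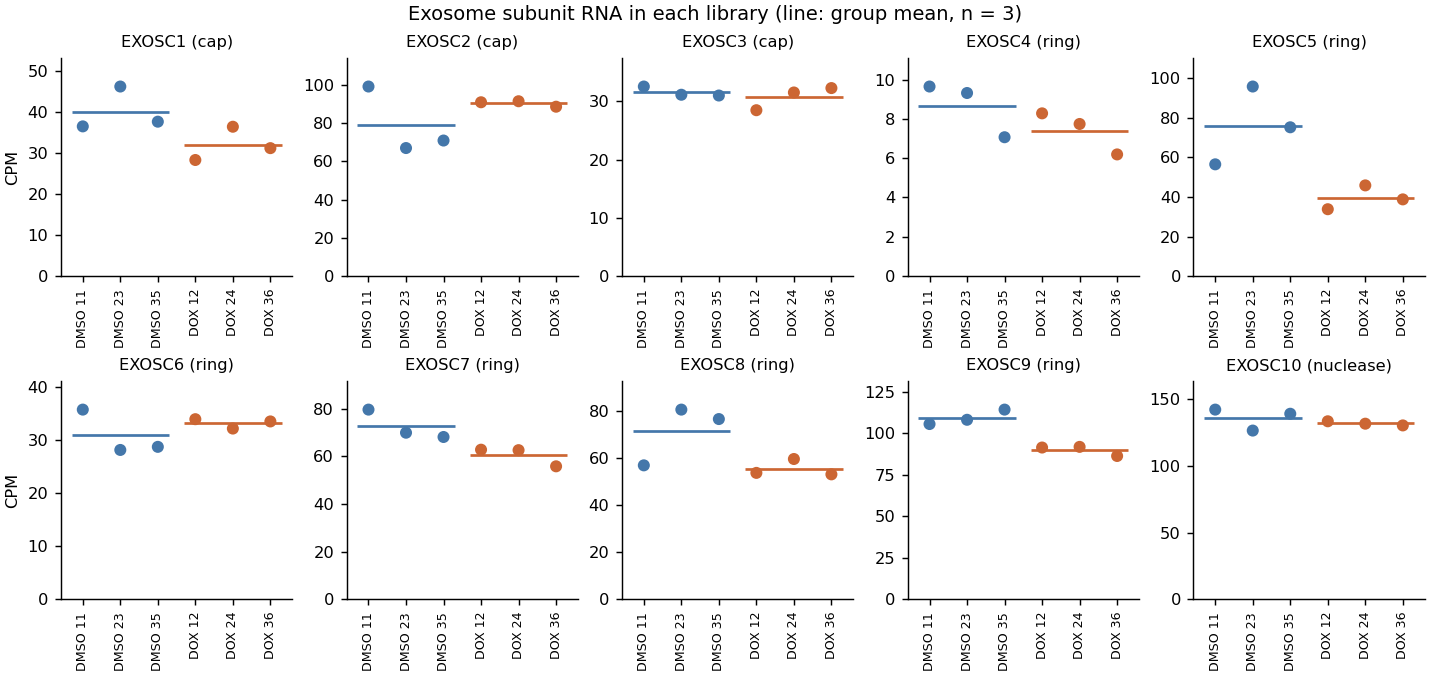
CPM (vertical axis, from 0) of each subunit in each library, DMSO in blue and DOX in orange, with the group mean as a line. EXOSC5, EXOSC9, EXOSC7 and EXOSC1 have every DOX library below every DMSO library, and EXOSC10 and EXOSC3 have groups that overlap.

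Among the ring subunits, EXOSC5 (ENSG00000077348, chromosome 19), the human counterpart of yeast Rrp46, differed most. It stood at 56.4 CPM in DMSO 11, 95.7 in DMSO 23 and 75.2 in DMSO 35, and at 33.8, 45.8 and 38.7 CPM in DOX 12, 24 and 36. Every DOX library was below every DMSO library, and DMSO 11 was the lowest of its group. The mean was 47.9% lower in DOX, with a log2 fold change of -0.94 ± 0.19. This put EXOSC5 at place 50 from the lowest among the 9311 genes averaging 10 CPM or more. Against DMSO 11 alone the difference in log2 CPM was -0.53 (place 40), and against the mean of DMSO 23 and DMSO 35 it was -1.11 (place 70). EXOSC5 thus stood below the control in both readings, although DMSO 11 was closer to the DOX libraries than to its own group over all genes. As a description, the adjusted p was 0.0851 by edgeR and 0.000349 by DESeq2, and the authors' deposited table gives -0.95 with an adjusted p of 0.000358. Without DMSO 11 the edgeR value was -1.12 ± 0.13 (adjusted p = 7.3e-05), and the lowest adjusted p with any other library left out was 0.247.

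The window around the EXOSC5 start site holds CACGTG, the canonical E-box that dimers of MYC or MYCN with MAX bind. RefSeq windows (GRCh38.p14, 250 bases before to 50 after each start) were listed for 8 of the 10 subunits, in 9 windows; EXOSC1 and EXOSC4 had no entry. CACGTG, which reads the same on both strands, was found 2 times in the EXOSC5 window and 0 times in the windows of the other 7 subunits. Of all 35116 windows, 7.26% hold it at least once and 0.664% at least 2 times. The related letters CACGCG, searched on both strands (CGCGTG on the other) with no overlap with CACGTG here, were found once in the EXOSC5 and EXOSC10 windows and in 1 of the 2 EXOSC3 windows, against 11.4% of all windows. A match is a description of the letters and not a measured site. The 3 stretches of 30 bases are shown because they are the places where EXOSC5 carries these letters; capitals mark the motif, and each is given 5′ to 3′ on the minus strand of GRCh38.p14. The first motif begins 89 bases before the RefSeq start (chr19:41397431-41397460), the second 54 bases before it (chr19:41397396-41397425), and the third at base 15 after it (chr19:41397328-41397357).
EXOSC5 first E-box: taaacgctaagcCACGTGcggacgcccagg
EXOSC5 CACGCG motif: ggcccagcccggCGCGTGcgcactggttac
EXOSC5 second E-box: caactgcagccgCACGTGggctcggcgcga

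EXOSC5 shares its start region with BCKDHA, which encodes a subunit of the branched-chain ketoacid dehydrogenase and runs on the opposite strand; the exons of the 2 genes overlap there in GENCODE 29. BCKDHA, named after its values were seen, stood at 9.54, 14.9 and 12.6 CPM in the DMSO libraries and 6.34, 7.88 and 7.17 CPM in the DOX libraries. Its groups did not overlap either, and its libraries stood in the same order as those of EXOSC5. The log2 fold change of BCKDHA was -0.80 ± 0.18, with an edgeR adjusted p of 0.0892 and a DESeq2 adjusted p of 0.00325. Whether the authors counted by strand is not given in the sources used here, and without strand, reads from the shared stretch cannot be told apart.

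EXOSC8 (ENSG00000120699, chromosome 13), the counterpart of yeast Rrp43 and the ring neighbour of EXOSC5, stood at 56.9, 80.7 and 76.6 CPM in DMSO and 53.7, 59.6 and 53.1 CPM in DOX. DMSO 11 lay within the range of the DOX libraries, and DMSO 23 and DMSO 35 lay above all of them. The log2 fold change was -0.36 ± 0.13 (edgeR adjusted p = 0.144, DESeq2 adjusted p = 0.0932). Without DMSO 11 it was -0.50 ± 0.07 and passed (edgeR adjusted p = 7.4e-06), while the DOX mean differed from DMSO 11 alone by -0.04. EXOSC8 overlaps SUPT20H on the opposite strand at its end, and that gene was likewise lowest among the DMSO libraries in DMSO 11, at 85.5 CPM against 137.9 and 132.3.

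EXOSC9 (ENSG00000123737, chromosome 4), the counterpart of yeast Rrp45, had a small spread within each group. It stood at 105.6, 108.2 and 114.3 CPM in DMSO and 91.5, 91.9 and 86.4 CPM in DOX, without overlap. The mean was 17.8% lower in DOX and the log2 fold change was -0.28 ± 0.08, with an adjusted p of 0.100 by edgeR, which did not call it, and 0.0342 by DESeq2, which did. Here DMSO 11 was no exception, since the difference was -0.23 against DMSO 11 and -0.31 against the other DMSO libraries. EXOSC9 overlaps CCNA2, the cyclin A2 gene, on the opposite strand, and CCNA2 stood at -0.01 ± 0.08.

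EXOSC7 (ENSG00000075914, chromosome 3), the counterpart of yeast Rrp42, stood at 79.7, 70.0 and 68.2 CPM in DMSO and 62.9, 62.7 and 55.9 CPM in DOX. The groups did not overlap, and DMSO 11 was the highest library. The log2 fold change was -0.26 ± 0.09 (edgeR adjusted p = 0.139, DESeq2 adjusted p = 0.125). By that fold change EXOSC7 was in place 1647 of 9311 from the lowest. The difference was -0.40 against DMSO 11 alone (place 137) and -0.19 against the other DMSO libraries (place 2813). EXOSC7 thus leaned on DMSO 11 in the direction opposite to EXOSC8. Without DMSO 11 the log2 fold change was -0.19 ± 0.07 (edgeR adjusted p = 0.0285).

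The RNAs of the 2 remaining ring subunits were scarce per length, and neither was called with all libraries. In CPM, which takes no account of length, EXOSC6 had a DMSO mean of 30.9, near the 31.6 of EXOSC3. EXOSC4 (ENSG00000178896, chromosome 8), the counterpart of yeast Rrp41, stood at 9.65, 9.32 and 7.07 CPM in DMSO and 8.28, 7.74 and 6.19 CPM in DOX, with overlap and a log2 fold change of -0.23 ± 0.17 (edgeR adjusted p = 0.403). EXOSC6 (ENSG00000223496, chromosome 16), the counterpart of yeast Mtr3, stood at 35.8, 28.2 and 28.7 CPM in DMSO and 33.96, 32.2 and 33.5 CPM in DOX, at 0.11 ± 0.11 (edgeR adjusted p = 0.555). DMSO 11 was the highest library for both. Without it EXOSC6 was higher in DOX by 0.22 ± 0.08 (edgeR adjusted p = 0.0194).

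Ring subunits assemble as neighbouring pairs, and the ratio of 2 RNAs within a library does not depend on how libraries are scaled. The level of such a ratio depends on the gene lengths used, and the difference between groups does not. EXOSC5 to EXOSC8 stood at 1.06, 1.27 and 1.05 (ratio of RPKM) in the DMSO libraries and 0.674, 0.823 and 0.782 in the DOX libraries. The difference in log2 ratio was -0.57, with SDs of 0.15 in each group, and DMSO 11 lay with its own group. EXOSC4 to EXOSC9 stood at 0.182, 0.172 and 0.123 in DMSO and 0.180, 0.168 and 0.143 in DOX, with overlapping groups and a difference of 0.06 that turned to -0.12 without DMSO 35 and to -0.02 without DOX 12. EXOSC6 to EXOSC7 stood at 0.0919, 0.0823 and 0.0863 in DMSO and 0.111, 0.105 and 0.123 in DOX, without overlap and with a difference of 0.38. EXOSC5 relative to the geometric mean of the other 9 subunits was 1.62, 2.86 and 2.33 in DMSO and 1.11, 1.44 and 1.31 in DOX, above 1 in all 6 libraries and smaller in DOX. These ratios carry the contrast by which EXOSC5 was known and were not tested.

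**Figure D3:**
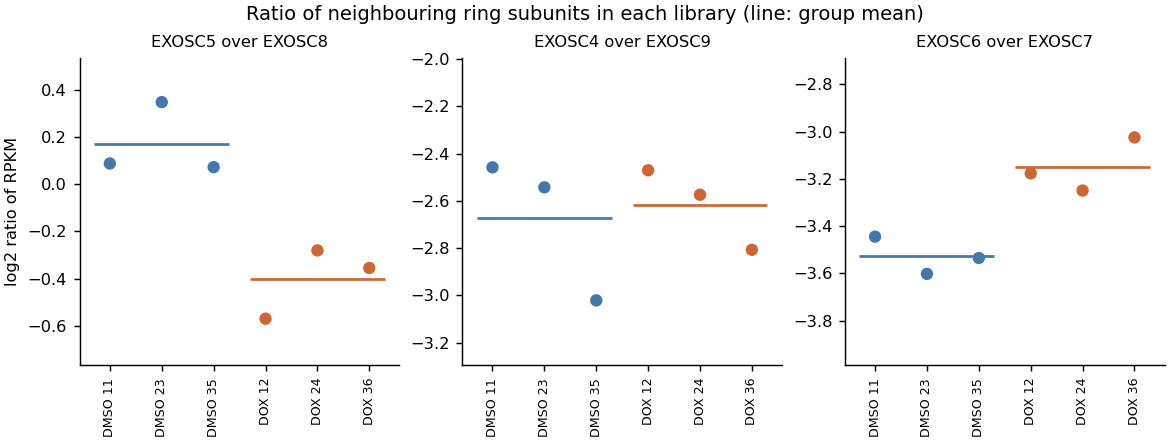
Log2 ratio of RPKM (vertical axis, the same span in each panel) for 3 neighbouring ring pairs in each library, with the group mean as a line. With lengths over basic transcripts, EXOSC5 over EXOSC8 is above 0 in the 3 DMSO libraries and below 0 in the 3 DOX libraries, and EXOSC4 over EXOSC9 overlaps between groups.

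The cap subunits, which carry the RNA-binding domains at the barrel's entrance, differed in direction. EXOSC1 (ENSG00000171311, chromosome 10), the counterpart of yeast Csl4, stood at 36.5, 46.3 and 37.7 CPM in DMSO and 28.3, 36.5 and 31.2 CPM in DOX. The lowest DMSO library (36.55) was just above the highest DOX library (36.46), and the log2 fold change was -0.33 ± 0.13 (edgeR adjusted p = 0.164, DESeq2 adjusted p = 0.134). It passed without DMSO 11, at -0.39 ± 0.10 (edgeR adjusted p = 0.00557), and was -0.22 without DMSO 23. EXOSC2 (ENSG00000130713, chromosome 9), the counterpart of yeast Rrp4, stood at 99.0, 66.9 and 70.8 CPM in DMSO and 90.8, 91.3 and 88.5 CPM in DOX. All DOX libraries lay between DMSO 11 and the other DMSO libraries, so the log2 fold change of 0.19 ± 0.14 (edgeR adjusted p = 0.401) became 0.39 ± 0.07 without DMSO 11 (edgeR adjusted p = 5.88e-05), while the DOX mean was below DMSO 11 alone (-0.13). EXOSC3 (ENSG00000107371, chromosome 9), the counterpart of yeast Rrp40, stood at 32.5, 31.1 and 31.0 CPM in DMSO and 28.5, 31.5 and 32.3 CPM in DOX, at -0.04 ± 0.09 (edgeR adjusted p = 0.811). EXOSC3 has 2 processed pseudogenes in the table, which held 4 and 0 counts over all libraries. In GENCODE 29 its exons overlap DCAF10 on the opposite strand and AL138752.2 on the same strand. DCAF10 stood at -0.26 ± 0.17 (edgeR adjusted p = 0.330), and AL138752.2 was not among the genes tested. The part of these overlaps in the counts of EXOSC3 was not tested.

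EXOSC10 (ENSG00000171824, chromosome 1), the counterpart of the yeast nuclear exonuclease Rrp6, was, with EXOSC3, one of the subunits nearest to 0. It stood at 142.3, 126.5 and 139.2 CPM in DMSO and 133.5, 131.7 and 130.4 CPM in DOX, at -0.04 ± 0.08 (edgeR adjusted p = 0.744). With any 1 library left out the value ran from -0.10 to -0.01. The processive nuclease DIS3 stood at 62.0, 67.6 and 72.9 CPM in DMSO and 59.6, 59.8 and 60.4 CPM in DOX, at -0.17 ± 0.09 (edgeR adjusted p = 0.235). Its cytoplasmic relative DIS3L was at -0.19 ± 0.08 (edgeR adjusted p = 0.202). For both, every DOX library lay below every DMSO library.

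**Figure D4:**
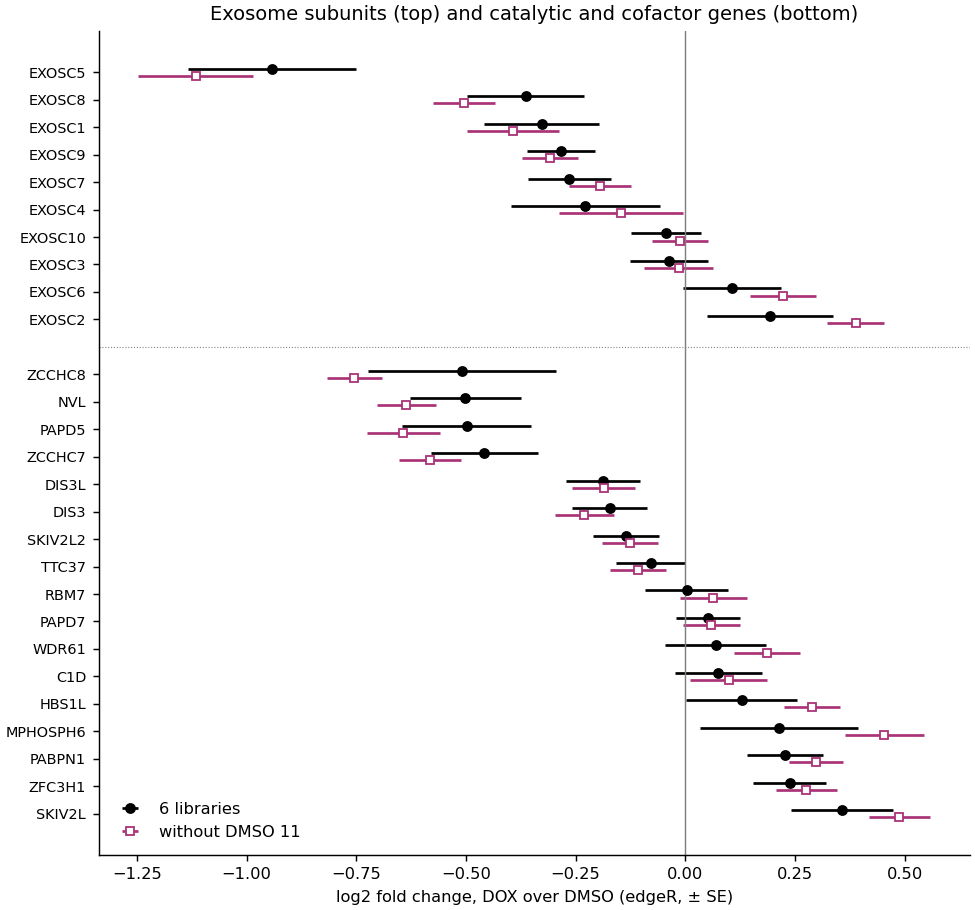
Log2 fold change of DOX over DMSO from edgeR (horizontal axis, ± SE) for the subunits (top) and the catalytic and cofactor genes (bottom), with all 6 libraries (filled) and without DMSO 11 (open). EXOSC5 is lowest at -0.94 and -1.12, and EXOSC2 moves from 0.19 to 0.39 without DMSO 11.

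The exosome works with cofactors that bring it substrates: the TRAMP, NEXT and PAXT complexes in the nucleus and the SKI complex in the cytoplasm. In the list of 17 catalytic and cofactor genes, edgeR called 0 over all genes, and 7 had an unadjusted p under 0.05, against 26.02% of all genes. DESeq2 called 3 lower and 0 higher, against 6.89% and 3.08% of all genes, with the list centred on a median of 0.00277 (log2). The DOX libraries were all lower than any DMSO library for 6 of them and all higher for 4, against 15.6% and 14.6% of all genes. The 3 DESeq2 calls were PAPD5, the poly(A) polymerase of TRAMP, ZCCHC7, the zinc-knuckle subunit of TRAMP, and NVL, an AAA ATPase of ribosome assembly that binds the exosome helicase. PAPD5 stood at 28.8, 38.4 and 42.1 CPM in DMSO and 28.6, 24.2 and 24.6 CPM in DOX (-0.50 ± 0.15, edgeR adjusted p = 0.107, DESeq2 adjusted p = 0.0302). ZCCHC7 stood at 45.2, 57.2 and 62.6 CPM in DMSO and 41.0, 38.9 and 40.1 CPM in DOX (-0.46 ± 0.12, edgeR adjusted p = 0.0984, DESeq2 adjusted p = 0.0206). NVL stood at 54.1, 73.7 and 73.4 CPM in DMSO and 46.5, 49.7 and 46.0 CPM in DOX (-0.50 ± 0.13, edgeR adjusted p = 0.0946, DESeq2 adjusted p = 0.0132). DMSO 11 was the DMSO library nearest to DOX for all 3 genes. Without it PAPD5 was at -0.64 ± 0.08 (edgeR adjusted p = 3.47e-06) and ZCCHC7 at -0.58 ± 0.07 (edgeR adjusted p = 1.45e-06). NVL was then at -0.64 ± 0.07 (edgeR adjusted p = 2.64e-07).

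ZCCHC8, the scaffold of the NEXT complex, had the lowest fold change of the list, and its value rested on which DMSO libraries were counted. It stood at 76.7 CPM in DMSO 11, 143.9 in DMSO 23 and 144.5 in DMSO 35, against 88.4, 86.3 and 81.9 CPM in DOX. The log2 fold change was -0.51 ± 0.21 (edgeR adjusted p = 0.182), and -0.75 ± 0.06 without DMSO 11 (edgeR adjusted p = 1.02e-08). SKIV2L2, the helicase shared by the nuclear complexes, was at -0.14 ± 0.08 (edgeR adjusted p = 0.277). DIS3, DIS3L and SKIV2L2 are named after their values were seen, as are the next 3 genes. At the other end of the list were the SKI helicase SKIV2L at 0.36 ± 0.12, the PAXT scaffold ZFC3H1 at 0.24 ± 0.08 and the nuclear poly(A)-binding protein PABPN1 at 0.23 ± 0.09, each with every DOX library above every DMSO library and edgeR adjusted p-values of 0.122, 0.134 and 0.156. Without DMSO 11 edgeR called 6 of the 17 lower and 6 higher, against 25.7% and 23.7% of all genes.

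RNA decay outside the exosome, a list of 28 genes of decapping, 5′ to 3′ decay, deadenylation and nonsense-mediated decay, gave 0 edgeR calls over all genes. An unadjusted edgeR p under 0.05 was found for 6 of them, against 26.02% of all genes. DESeq2 called 2 lower and 0 higher, against 6.89% and 3.08% of all genes, so in that fit the share called lower was near that of all genes. The median in edgeR was -0.07. Without DMSO 11 edgeR called 11 of the 28 lower and 4 higher, against 25.7% and 23.7% of all genes, with a median of -0.11. CNOT10, a subunit of the CCR4-NOT deadenylase, stood at 91.0, 144.7 and 146.7 CPM in DMSO and 83.9, 91.2 and 83.5 CPM in DOX (-0.56 ± 0.17, edgeR adjusted p = 0.110, DESeq2 adjusted p = 0.0254), with overlapping groups. PAN2, a poly(A) nuclease, stood at 89.5, 120.2 and 110.7 CPM in DMSO and 80.8, 79.9 and 79.4 CPM in DOX (-0.42 ± 0.11, edgeR adjusted p = 0.0991, DESeq2 adjusted p = 0.0229). With DMSO 11 left out, CNOT10 was at -0.76 ± 0.06 (edgeR adjusted p = 1.3e-08) and PAN2 at -0.53 ± 0.06 (edgeR adjusted p = 1.3e-06). No gene of this list had a fold change as low as that of EXOSC5. Since EXOSC5 was known to be low before the list was written, nothing is drawn from this.

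Genes with a pattern most like that of EXOSC5 were found by the root mean square distance of log2 CPM, centred on the mean of the 6 libraries, among 9310 other genes averaging 10 CPM or more. Leaving out clone names, the 5 nearest were the pseudophosphatase gene STYXL1 (0.05), IGHV3-22 (0.09), MYCN (0.14), the phosphatase gene PPM1H (0.14) and STX18-AS1 (0.15). STYXL1 stood at 18.3, 33.7 and 26.9 CPM in DMSO and 11.8, 14.9 and 13.3 CPM in DOX, the same order of libraries as for EXOSC5. MYCN, one of the targeted genes, was in place 5 with clone names counted, and MYC was in place 3898 at a distance of 0.50. The nearest other subunits were EXOSC8 in place 636 (0.31) and EXOSC1 in place 773 (0.33), and the farthest was EXOSC2 in place 8059 (0.70). BCKDHA, whose mean is below the minimum, was at 0.09. The 6 libraries share the contrast and the position of DMSO 11, so these distances describe the libraries and nothing is drawn from them about function or control.

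**Figure D5:**
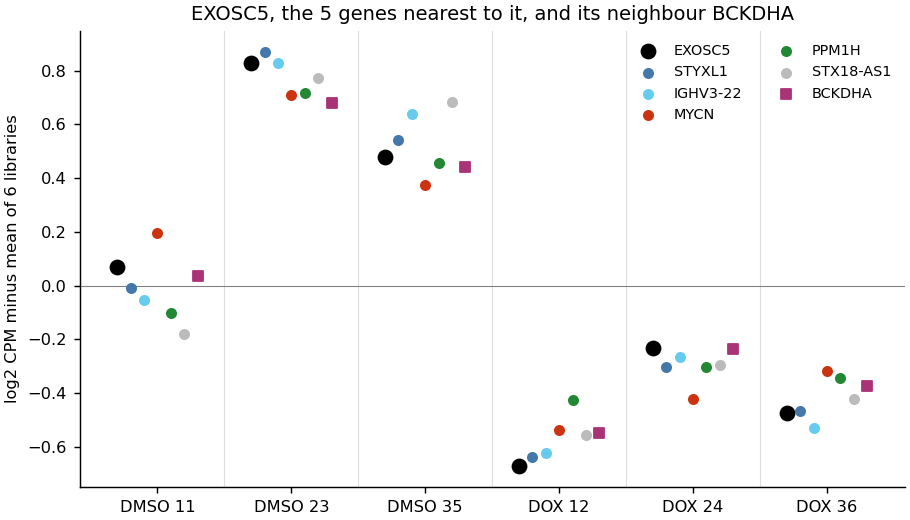
Log2 CPM of EXOSC5 (large black points), the 5 genes nearest to it and its neighbour BCKDHA (squares), each centred on its mean over the 6 libraries (vertical axis), by library. All 7 genes are highest in DMSO 23, lie between -0.18 and 0.20 in DMSO 11 and are below 0 in the 3 DOX libraries.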

How the data were processed

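The deposited table holds raw read counts per Ensembl gene for 6 libraries, 3 per group. Per the submitters' processing notes, which give no roles, STAR 2.5.2a, featureCounts, DESeq2 1.12.4 and hg19 were used; annotation release and strand setting are not given in the sources used here. A second deposited table, per the file headers, lists a mean normalised signal, log2 fold changes, a test score and p-values by the authors. The 92 spike-in rows held 0 counts and were left out. Count columns show the group but no label's replicate number.

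Genes passing edgeR's filterByExpr were TMM-scaled and fitted in edgeR 4.0.16 (quasi-likelihood F test with robust dispersions, group as the only term, Benjamini-Hochberg adjustment over 15949 genes, R 4.3.3). SE is the fold change divided by the square root of F. DESeq2 1.42.0, on all genes with counts, and limma 3.58.1 (voom) were alternatives, beside other scalings, filters, a non-robust fit, a likelihood ratio test and each library left out. EdgeR, DESeq2 and voom at their main settings were tested on simulated counts, and the other settings were not. Log2 CPM used a prior count of 2. Lengths (exons of basic transcripts) and overlaps (all transcripts) came from GENCODE 29 (another build than the authors'), promoter sequences from RefSeq. Members and lists were chosen with earlier results of these data known. Named genes were the 10 subunits, MYC, MYCN, list genes called by either tool, the 2 of largest absolute fold change per list at 10 CPM or more, and the 5 genes nearest to EXOSC5; others are named as seen first. Single values of some markers of other lineages are not reported here.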

Additional observations from a re-analysis of the deposited data

How the results depend on the processing

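The count of subunits called went from 0 to 2 with DESeq2, 2 with no filter (EXOSC5 and EXOSC8) and 1 with edgeR's likelihood ratio test (EXOSC5), and ran from 0 to 7 with 1 library left out, the 7 being without DMSO 11. Over all genes the count went from 5 to 1382 with DESeq2, 1761 with no filter and 1594 with the likelihood ratio test, and from 0 to 8109 with 1 library left out, the 8109 being without DMSO 11. Cofactor genes called went from 0 to 3, 4 and 3 and other decay genes from 0 to 2, 2 and 2 in the same 3 settings, and from 0 to 12 and from 0 to 15 with 1 library left out. MYCN passed with DESeq2 (-0.87), no filter (-0.88) and the likelihood ratio test (-0.87), and ran from -0.98 to -0.72 with 1 library left out. EXOSC5 stayed between -1.12 and -0.74 in every setting run, the latter without DMSO 23. With 1 library left out EXOSC3 ran from -0.073 to 0.022, the latter without DOX 12. The log2 ratio of EXOSC4 to EXOSC9 ran from -0.12 to 0.16 with 1 library left out, that of EXOSC5 to EXOSC8 from -0.63 to -0.48, and that of EXOSC6 to EXOSC7 from 0.31 to 0.43. The summed level in DMSO was 387 RPKM with the longest coding transcript as length and 186 RPKM with exons of all transcripts, against 421. With the longest coding transcript, only the lengths of EXOSC9 and EXOSC4 grew. With exons of all transcripts, those of every subunit but EXOSC6 did. The likelihood ratio test and those lengths were chosen after seeing the data; coding length from RefSeq proteins was not run. Where not stated, the cause was not tested. No paired analysis was possible because the count columns carry no replicate number of the labels.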
